A study of Homo sapiens with 6 samples.

Results

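The genes described here are the long intergenic noncoding RNAs of Calu3 cells, an established human line from a lung adenocarcinoma with features of airway epithelium. They were chosen by symbol and level, as every row of the deposited gene table whose symbol is LINC followed by a digit and whose mean over all 6 libraries was at least 10 normalized counts. Of 878 such symbols among 26364 rows, 181 met that level, 359 lay above 0 but under it, and 338 had no reads in any library. The mean that selected the members takes no account of the treatment, and the differences between treatments described below were not used by it. The last members inside the limit were LINC00240 with a mean of 10.1, LINC00273 with 10.1 and LINC01088 with 10.1, and the first outside were LINC01372 with 9.87, LINC01270 with 9.77 and LINC00539 with 9.61.

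Single-end RNA-seq libraries were compared between cells transfected with a negative control siRNA and cells transfected with siRNA against BRD8, with 3 libraries in each group and 20 nmol of siRNA given for both. The comparison asks which transcripts differ when BRD8, a bromodomain subunit of the TIP60 histone acetyltransferase complex, is depleted in lung epithelial cells. All libraries are of the same line and carry no other alteration in the labels. Nothing in the labels tells if the libraries of a group stem from separate cultures, so the p-values reflect a spread between libraries that could be technical. One reagent was used against BRD8, and effects of that reagent other than loss of BRD8 cannot be told apart from it.

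Long intergenic noncoding RNAs are transcribed by RNA polymerase II from loci between protein-coding genes, are mostly spliced, and hold no long reading frame. A LINC symbol is a serial name given to such a gene before any function is known, and some loci so named are later renamed for a function, a neighbour or a small protein. Most are expressed at low level and in few cell types, and those studied in depth act as decoys for RNA-binding proteins, as guides for chromatin factors or through the act of their own transcription beside a coding gene.

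BRD8 itself measured 2751, 2928 and 3067 normalized counts in control libraries 1 to 3 and 1312, 1084 and 1156 in BRD8 libraries 1 to 3. The groups did not overlap, and the fall was 2.46-fold (log2 difference -1.30, SE 0.0904, adjusted p = 1.13e-04). Whole reads recovered from the table numbered between 33640814 and 37896467 per library, so 1 read stands for about 1 normalized count and 3 reads for 2.84 to 3.24. The epithelial markers EPCAM, KRT8, KRT18, KRT19, CDH1, CFTR, ERBB2 and MUC1 were all detected, with means of 9793 to 194497, and their summed level was 503235 to 604458 in control and 661280 to 719330 in BRD8 libraries. Their part in the results below was not tested. Of the other cell types, 4 leukocyte markers summed to 20.9 to 41.0 and 31.9 to 41.6, 3 endothelial markers to 3.24 to 6.63 and 10.4 to 13.3, and 4 fibroblast markers to 183 to 201 and 158 to 173, nearly all of it COL1A1.

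After BRD8 siRNA members differed in both directions, with more rises than falls. Of the 181 members, 26 rose and 11 fell at an adjusted p under 0.05 in limma, 37 in all or 20.4%. Over all 15354 rows with the same minimum mean, 19% passed, 10.1% as rises and 8.93% as falls. Beside that background the members' total share was close to it, while 14.4% of members rose and 6.08% fell. The median log2 difference of the members was 0.13, against -0.01 over all rows tested, and 110 members lay above 0 and 71 below. The medians differed by level. At a mean of 10 to under 200 they were 0.21 for members and 0.06 for all rows. At 200 and above they were -0.08 for members and -0.03 for all rows, with 18 members above 0 and 32 below. Changes of at least 2-fold among called members were 9 rises and 2 falls, and among all 15354 rows 278 rises and 51 falls. At a mean of 10 to under 200 they were 6 rises and 2 falls of 131 members, and 183 rises and 38 falls of 4352 rows. The 2 falls of members were LINC00326 and LINC01152. Both had a BRD8 mean under 10 and so entered through the control group. No test compared these shares, so nothing in them is shown to be particular to the LINC genes.

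Leaving out a library changed these counts. The rises numbered 15 when control library 3 was omitted, 17 for BRD8 library 1, 17 for BRD8 library 2 and 14 for BRD8 library 3. In these 4 fits 8.86%, 12.9%, 10.2% and 10.2% of all rows were called, and 12.7%, 13.8%, 13.3% and 12.2% of members. The falls numbered 7 when control library 1 was omitted, 17 for control library 2 and 7 for BRD8 library 2. Omitting control library 1 left 12.2% of all rows and 14.4% of members called. Omitting control library 2 raised the share called over all rows from 19% to 34.1%, and the members then showed 36 rises, with 29.3% called in all. In all 6 fits with 1 library left out, 19 of the 37 members were called, 12 as rises and 7 as falls. The same count over all rows was not made, so this number has no background beside it. Of the 37, edgeR on the recovered reads passed each, DESeq2 all but LINC00643 and LINC01239, and the authors' deposited table all but those and LINC01057 and LINC01588.

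**Figure D1:**
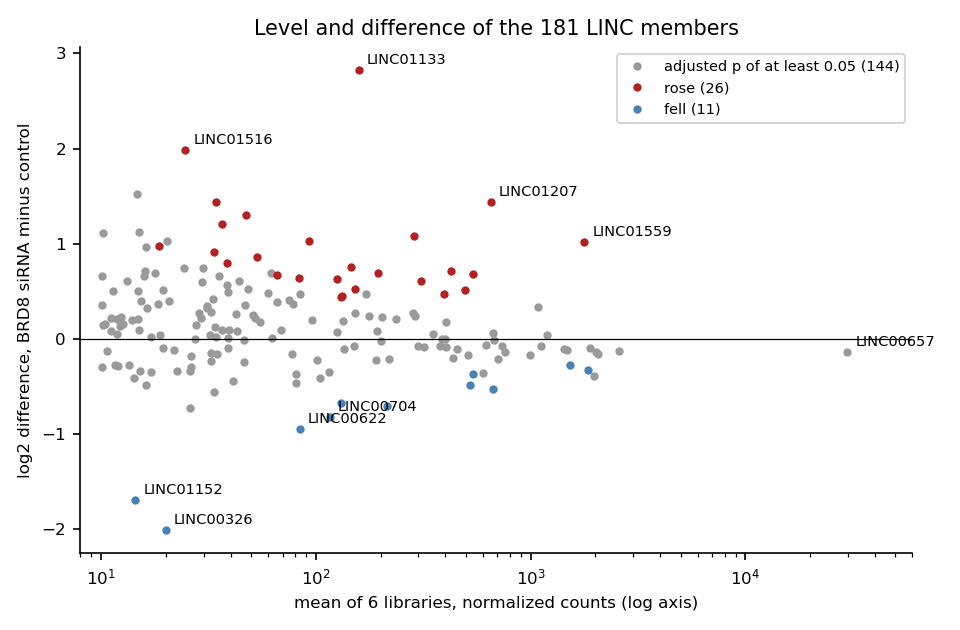
Log2 difference (BRD8 siRNA minus control) against the mean over 6 libraries in normalized counts (log axis) for the 181 LINC members, with 1 point per gene and colours for the 26 that rose, the 11 that fell and the 144 that did not pass. LINC01133 has the largest difference at 2.82, and LINC00657 (NORAD) is the most abundant member at a mean of 29847.

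Rises and falls were also counted by level. Most members are scarce: 131 of 181 had a mean under 200 normalized counts, and there 18 rose and 5 fell. Among all 4352 rows in that range, 9.88% rose and 4.41% fell, compared with 13.7% and 3.82% of these members. For the 50 members at 200 or more, 8 rose and 6 fell, which is 16% and 12%, while all rows of that level gave 10.2% and 10.7%. The band from 50 to under 200 held the most rises, 11 of 41 members or 26.8%, where all rows in the band gave 13.5%. Below a mean of 20, 3 of 43 members passed, or 6.98%, beside 5.78% of all rows in that range. Of the 14 most abundant members LINC01559 rose and LINC00673 and LINC01000 fell. That is 21.4% called, beside 21.3% of all rows in the same highest band of level. In 9 members the mean of 1 group was under 10, so that they entered through the other group, and 2 of these, LINC00326 and LINC01152, were called.

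**Figure D2:**
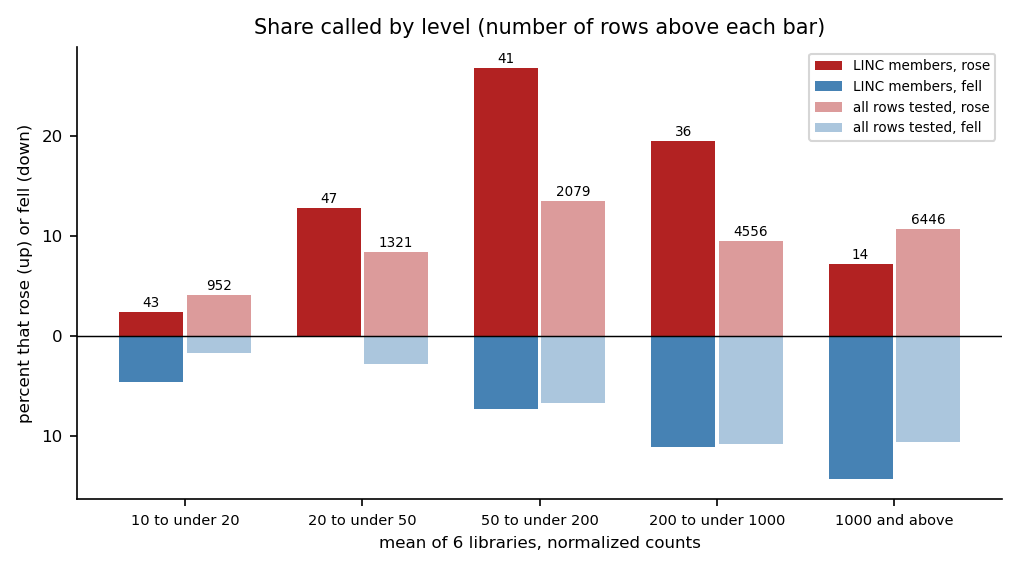
Percent of rows that rose (bars up) or fell (bars down) in 5 bands of mean level, with dark bars for LINC members, pale bars for all rows tested and the number of rows above each pair. From 50 to under 200 normalized counts 26.8% of members and 13.5% of all rows rose, while in the lowest band 2.33% and 4.10% did.

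The largest change of any member was the rise of LINC01133, a long noncoding RNA described in other work as a decoy of the splicing factor SRSF6. It measured 38.9, 52.9 and 26.4 normalized counts in control libraries 1 to 3 and 309, 293 and 229 in BRD8 libraries 1 to 3. The lowest BRD8 library was above the highest control library by over 4-fold on these values, so the groups were far apart. The means were 39.4 ± 13.2 and 277 ± 42.2 (SD, n = 3 each), a 7.03-fold rise (log2 difference 2.82, SE 0.241, adjusted p = 2.43e-04). No exon of LINC01133 overlaps exons of another gene in GENCODE. Its longest transcript had no near-identical match among transcripts of genes that do not overlap it. The 5 rows whose log2 values over the 6 libraries followed it most closely were RAET1L with a Pearson r of 0.9993, NMNAT1 with 0.9993, PAX8 with 0.9992, APC2 with 0.9992 and FAM102A with 0.9989. Each of these rows splits the 6 libraries into the 2 treatment groups as LINC01133 does, and the correlation is a description.

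Promoters are shown for the 3 largest rises and the 3 largest falls that have an entry in the RefSeq promoter table, so that the sequences at which the most changed members start can be read. Each runs from 250 bases before to 50 after the annotated start, in build GRCh38.p14, whereas the deposited counts were made on hg19. LINC01133 lies at chr1:159960974-159961273 on the plus strand, LINC01516 at chr10:25112808-25113107 on the plus strand and LINC01207, now SMIM31, at chr4:164753881-164754180 on the plus strand. Among the falls, LINC01152 lies at chr17:72030404-72030703 on the plus strand, LINC00622 at chr1:119599242-119599541 on the minus strand and LINC00704, now MANCR, at chr10:4678021-4678320 on the minus strand. Capitals mark matches to 5 motifs searched on both strands, none of which contains another: the TATA box motif TATAAA, the CCAAT box, the motif TGANTCA of AP-1 factors, the motif TGTTTAC of forkhead factors and the E-box motif CACGTG. A match is a description of letters and no evidence of binding.
LINC01133: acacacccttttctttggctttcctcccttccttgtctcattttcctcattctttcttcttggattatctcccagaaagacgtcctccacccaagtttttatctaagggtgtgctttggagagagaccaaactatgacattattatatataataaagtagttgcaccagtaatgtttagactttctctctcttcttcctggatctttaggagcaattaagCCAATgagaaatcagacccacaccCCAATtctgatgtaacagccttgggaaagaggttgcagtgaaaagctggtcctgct
LINC01516: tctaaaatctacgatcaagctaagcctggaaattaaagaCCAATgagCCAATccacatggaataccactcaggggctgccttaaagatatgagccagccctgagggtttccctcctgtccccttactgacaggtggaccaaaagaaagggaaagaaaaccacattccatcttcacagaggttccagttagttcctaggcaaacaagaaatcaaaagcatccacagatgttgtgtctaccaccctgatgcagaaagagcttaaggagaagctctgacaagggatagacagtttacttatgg
LINC01207: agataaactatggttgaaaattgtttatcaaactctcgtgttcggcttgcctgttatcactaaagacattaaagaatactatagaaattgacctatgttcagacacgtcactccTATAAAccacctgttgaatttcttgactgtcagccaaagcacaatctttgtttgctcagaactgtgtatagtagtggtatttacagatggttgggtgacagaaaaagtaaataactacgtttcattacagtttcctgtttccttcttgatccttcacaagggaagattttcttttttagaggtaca
LINC01152: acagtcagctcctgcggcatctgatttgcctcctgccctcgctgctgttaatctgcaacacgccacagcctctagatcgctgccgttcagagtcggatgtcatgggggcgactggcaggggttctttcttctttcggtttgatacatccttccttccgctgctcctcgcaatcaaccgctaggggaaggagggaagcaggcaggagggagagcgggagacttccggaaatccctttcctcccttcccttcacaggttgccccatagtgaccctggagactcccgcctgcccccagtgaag
LINC00622: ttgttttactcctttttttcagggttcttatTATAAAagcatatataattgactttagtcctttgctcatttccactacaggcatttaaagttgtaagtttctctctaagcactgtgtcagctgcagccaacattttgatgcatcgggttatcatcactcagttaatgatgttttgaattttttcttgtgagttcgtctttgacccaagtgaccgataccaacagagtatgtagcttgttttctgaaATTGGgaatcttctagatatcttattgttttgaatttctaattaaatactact
LINC00704: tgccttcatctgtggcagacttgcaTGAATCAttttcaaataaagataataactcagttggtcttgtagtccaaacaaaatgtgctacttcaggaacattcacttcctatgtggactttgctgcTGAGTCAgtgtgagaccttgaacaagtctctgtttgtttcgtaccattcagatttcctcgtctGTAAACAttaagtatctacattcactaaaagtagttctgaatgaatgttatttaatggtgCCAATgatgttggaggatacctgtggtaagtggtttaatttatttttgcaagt

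The promoters of LINC01133 and LINC01516 each hold CCAAT at 2 places and 1 CpG, and that of LINC01207 holds TATAAA and 4 CpG. The LINC01152 promoter holds none of the motifs and 14 CpG, at a GC content of 58.7%. LINC00622 starts at a sequence of 33.3% GC with TATAAA and a CCAAT on the other strand. MANCR has TGANTCA at 2 places, a forkhead-type match and CCAAT. Over the 35116 promoters in the table, 34.6% hold CCAAT, 11.5% TATAAA, 7.71% TGANTCA, 3.42% TGTTTAC and 7.26% CACGTG. Among the 133 members with a promoter entry the same motifs stood in 39.8%, 13.5%, 9.77%, 4.51% and 10.5%. The median CpG number was 8 for the 19 rising members with an entry, 23 for the 8 falling and 15 for the 106 others, against 14 over all promoters, as a description with no test. The median transcript length was 2941 bases for the rising, 1891 for the falling and 2202 for the other members, and 3474 over all rows.

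**Figure D3:**
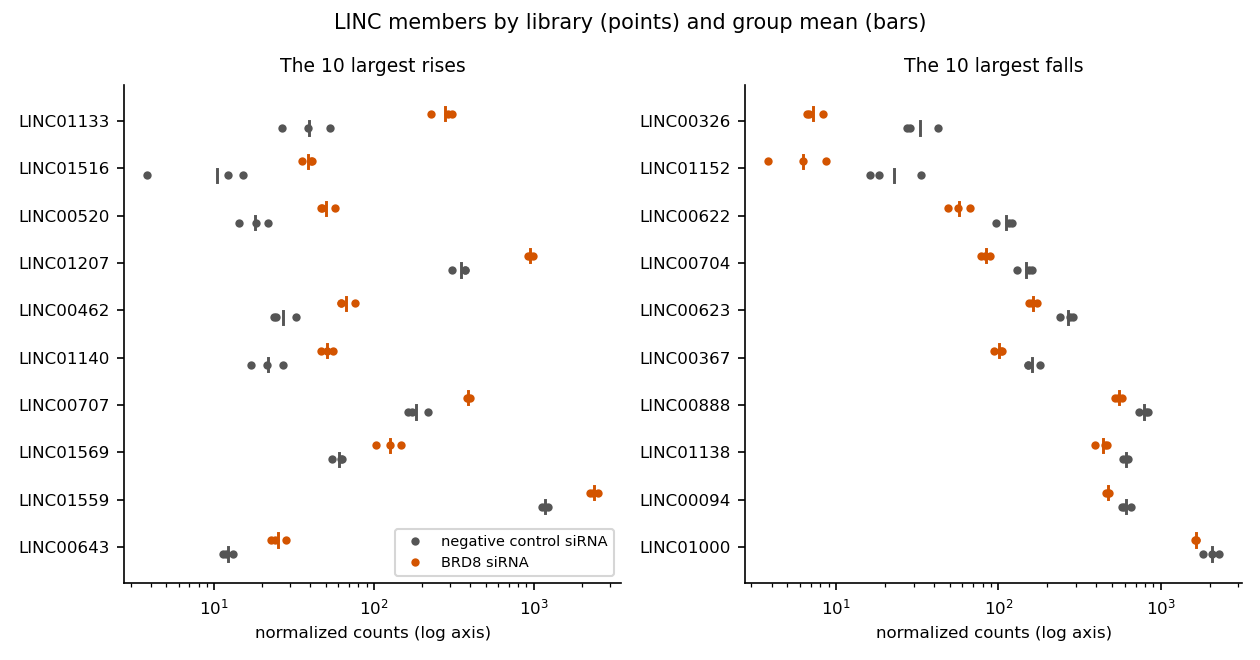
Normalized counts (log axis) of the 10 members with the largest rises and the 10 with the largest falls among those called, with grey points for the 3 control libraries, orange points for the 3 BRD8 libraries and short bars for group means. In each of the 20 genes the points of the groups do not overlap.

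LINC01516, from chromosome 10, was scarce in control cells. Its control libraries held 3.79, 15.1 and 12.2 normalized counts and its BRD8 libraries 35.3, 40.8 and 40.6. Each BRD8 library was above the highest control library by more than 2-fold, and control library 1 was close to the level of 3 reads. The rise was from 10.4 ± 5.88 to 38.9 ± 3.09 (log2 difference 1.98, SE 0.429, adjusted p = 0.0138). The call was lost without BRD8 library 3 (adjusted p 0.0539). Its exons overlap GPR158-AS1 on the opposite strand, and the TruSeq kit named in the labels keeps no strand information, so reads there cannot be told apart.

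LINC00520 read 21.8, 18.4 and 14.2 in the control libraries and 57.2, 47.4 and 46.4 in the BRD8 libraries. The groups were apart, and the mean went from 18.1 ± 3.79 to 50.3 ± 5.95 (log2 difference 1.44, SE 0.226, adjusted p = 0.00360). LINC01207 is annotated today as SMIM31, which encodes a small membrane protein, and its transcript has been described as an epithelial regulator. It stood at 373, 374 and 309 in control and 942, 917 and 989.9 in BRD8 libraries. With means of 352 ± 37.3 and 949.6 ± 37.1 it had the smallest adjusted p of the members (log2 difference 1.43, SE 0.100, adjusted p = 1.14e-04). The 3 BRD8 libraries lay far above the 3 controls.

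LINC00462 had 23.7, 32.4 and 24.4 normalized counts in the controls and 62.4, 62.6 and 76.4 after BRD8 siRNA. Its groups did not overlap (log2 difference 1.30, SE 0.198, adjusted p = 0.00315). LINC01140, a neighbour of the LIM-domain gene LMO4, gave 17.1, 27.0 and 21.3 and then 46.8, 51.2 and 55.1. Here too every BRD8 library was above every control (log2 difference 1.21, SE 0.221, adjusted p = 0.00681). LINC00707, studied elsewhere as a promoter of growth in lung adenocarcinoma, measured 163, 217 and 173 in the controls and 382, 389 and 397 in the BRD8 libraries. Its BRD8 libraries lay within a narrow range and the mean rose from 184 ± 28.8 to 389 ± 7.90 (log2 difference 1.09, SE 0.124, adjusted p = 8.97e-04).

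LINC01569 measured 63.5, 62.6 and 54.9 in control and 149, 126 and 102 in BRD8 libraries, with BRD8 library 3 the lowest of its group and still apart from the controls (log2 difference 1.03, SE 0.169, adjusted p = 0.00419). The most abundant riser was LINC01559. Its levels were 1224, 1175 and 1132 in the control libraries and 2543, 2239.8 and 2366 in the BRD8 libraries, a 2.02-fold rise of the mean from 1177 ± 45.8 to 2383 ± 152 (log2 difference 1.02, SE 0.0781, adjusted p = 1.55e-04). LINC00643, which RefSeq lists as a transcribed pseudogene, completed the 10 largest rises with 11.4, 11.9 and 13.2 and 28.1, 22.8 and 24.2. Its groups were apart (log2 difference 0.98, SE 0.240, adjusted p = 0.0228), but the call was lost without any 1 of control libraries 1 and 3 and BRD8 libraries 1, 2 and 3 (adjusted p 0.0605 to 0.0762), and neither DESeq2 nor the authors' deposited table passed it.

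Of the members with a role or name known from other work, LINC00672, LINC00842 and LINC00963 rose. LINC00672 is now LASP1NB, a neighbour of the actin-binding protein gene LASP1. It read 250.2, 252 and 231 in control and 359.7, 376 and 386 in BRD8 libraries, with groups that did not overlap (log2 difference 0.61, SE 0.0931, adjusted p = 0.00306). LINC00963, described in prostate cancer, read 106, 97.2 and 90.4 and then 161, 149 and 144, again apart (log2 difference 0.62, SE 0.125, adjusted p = 0.00983). It was no longer called without control library 3 (adjusted p 0.0512). LINC00842 gave 435, 333 and 451 in the controls and 615, 519 and 600.3 in the BRD8 libraries. Its groups were apart as well (log2 difference 0.52, SE 0.132, adjusted p = 0.0272), 19.5% of its transcript has a near-identical copy at ANXA8 and another locus, and its call was lost without any 1 of BRD8 libraries 1 and 3 (adjusted p 0.0903 to 0.0967).

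The other 13 rises ranged from 0.44 to 0.92 in log2 difference, at mean levels of 33.3 to 541. LINC00886, LINC01504 and LINC00294 kept their calls whichever library was left out. LINC00886 rose from 321 ± 6.22 to 526 ± 18.5 normalized counts (log2 difference 0.71, SE 0.0842, adjusted p = 0.00105). LINC01504 rose from 149 ± 25.6 to 240.1 ± 6.41 and LINC00294 from 417 ± 29.1 to 666 ± 21.9. LINC00294 overlaps exons of CSTF3, a subunit of the cleavage stimulation factor, on the opposite strand, and CSTF3 went from 1671 to 1948 (log2 difference 0.22, adjusted p = 0.0717).

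The remaining 10 rises each lost their call when some library was left out. LINC00659 went from 23.1 ± 6.65 to 43.6 ± 6.10 and lost its call without any 1 of control library 3 and BRD8 libraries 1, 2 and 3 (adjusted p 0.0632 to 0.125). LINC00884, a divergent transcript of the transporter gene ATP13A3, went from 37.2 ± 6.34 to 68.7 ± 13.9, and its call was lost without any 1 of control library 3 and BRD8 libraries 2 and 3 (adjusted p 0.0717 to 0.0984). ATP13A3, which its exons overlap on the opposite strand, had a log2 difference of 0.20 (adjusted p = 0.449). LINC01239 moved from 28.0 ± 6.67 to 49.0 ± 7.96, the call being lost without any 1 of control libraries 1 and 3 and BRD8 libraries 1, 2 and 3 (adjusted p 0.0631 to 0.163). In each of these 10 the groups did not overlap when all libraries were used. For LINC00685 the means were 109 ± 27.4 and 182 ± 23.4, with no call without any 1 of control libraries 1 and 3 and BRD8 libraries 1 and 3 (adjusted p 0.0638 to 0.0980). LINC00992, beside the semaphorin gene SEMA6A, had means of 50.8 ± 10.3 and 80.6 ± 6.47 and was not called without any 1 of control library 3 and BRD8 libraries 1, 2 and 3 (adjusted p 0.0789 to 0.125). LINC00514, now GREP1 and listed by RefSeq as protein-coding, went from 65.0 ± 7.10 to 102 ± 18.0 and was lost without any 1 of control libraries 1 and 3 and BRD8 libraries 1 and 2 (adjusted p 0.0581 to 0.129).

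LINC00910 went from 125 ± 3.55 to 181 ± 3.51, with its call lost without BRD8 library 3 (adjusted p 0.0504). LINC01137, renamed LITATS1, had means of 333 ± 57.1 and 459 ± 18.0 and was lost without any 1 of control libraries 1 and 3 and BRD8 libraries 1, 2 and 3 (adjusted p 0.0795 to 0.126). LINC01057, an antisense transcript of the choline transporter-like gene SLC44A3, went from 111 ± 9.55 to 152 ± 8.11 and was lost without any 1 of control libraries 1 and 3 and BRD8 libraries 1, 2 and 3 (adjusted p 0.0573 to 0.122). LINC01588 went from 111 ± 3.36 to 152 ± 14.0 and was lost without any 1 of control libraries 1 and 3 and BRD8 libraries 2 and 3 (adjusted p 0.0937 to 0.143).

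Falls were fewer and led by a pair of scarce transcripts. Both had a BRD8 mean under 10 and became members through the control group. LINC00326 measured 27.5, 42.1 and 28.5 normalized counts in control libraries 1 to 3 and 8.32, 6.64 and 6.77 in BRD8 libraries 1 to 3. Its groups were far apart, with the mean falling 4.51-fold from 32.7 ± 8.18 to 7.24 ± 0.934 (log2 difference -2.01, SE 0.280, adjusted p = 0.00205). LINC01152 read 33.2, 18.4 and 16.3 in control and 6.24, 3.79 and 8.70 in BRD8 libraries. BRD8 library 2 stood near the level of 3 reads, and the groups did not overlap (log2 difference -1.69, SE 0.393, adjusted p = 0.0184). The call was lost without any 1 of control library 1 and BRD8 library 2 (adjusted p 0.0590 to 0.0715). LINC01152 shares sequence on opposite strands with SOX9-AS1 and ROCR, transcripts near the chondrocyte and epithelial regulator SOX9, and SOX9-AS1 had a log2 difference of -0.13 (adjusted p = 0.522).

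LINC00622 measured 116, 96.1 and 121 in the controls and 48.9, 55.9 and 66.7 after BRD8 siRNA, with no overlap (log2 difference -0.95, SE 0.169, adjusted p = 0.00620). LINC00704, named MANCR for its association with mitosis, measured 129.8, 161 and 154 and then 83.2, 88.2 and 78.3. Every BRD8 library was lower than every control, with means of 148 ± 16.4 and 83.2 ± 4.94 (log2 difference -0.82, SE 0.136, adjusted p = 0.00444), and LINC00705 lies on its opposite strand. LINC00623 gave 286, 277 and 239 in control and 154, 174 and 161 in BRD8 libraries, apart (log2 difference -0.71, SE 0.115, adjusted p = 0.00405). Its whole transcript has near-identical copies in LINC01145 and LINC02591, so its reads cannot be assigned to it with certainty.

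LINC00367 measured 153, 179 and 151 in the controls and 103, 93.9 and 105 in the BRD8 libraries, with groups apart (log2 difference -0.67, SE 0.127, adjusted p = 0.00801). LINC00888, now the snoRNA host gene SNHG33, measured 809, 835 and 733 and 548, 579 and 521, also apart (log2 difference -0.53, SE 0.0887, adjusted p = 0.00482). LINC01138 measured 632, 585 and 611 and 466, 392 and 455, apart as well (log2 difference -0.48, SE 0.0963, adjusted p = 0.00996), with 9.63% of its transcript near-identical to other loci. These 3 falls were called whichever library was left out.

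The last 3 falls were the smallest. LINC00094, now BRD3OS, lies on the opposite strand of BRD3, a BET bromodomain gene. It measured 597, 655 and 574 in the control and 461, 473 and 479 in the BRD8 libraries, groups apart (log2 difference -0.37, SE 0.0866, adjusted p = 0.0194), and BRD3 went from 692 to 616 (log2 difference -0.15, adjusted p = 0.579). The call of LINC00094 was lost without any 1 of control libraries 1 and 3 and BRD8 libraries 1, 2 and 3 (adjusted p 0.0507 to 0.0668). LINC01000 measured 2298, 1833 and 2071 and 1626, 1647 and 1643, with the BRD8 libraries within a narrow range below the controls (log2 difference -0.33, SE 0.0912, adjusted p = 0.0366). Its call was lost without any 1 of control libraries 1 and 3 and BRD8 libraries 1, 2 and 3 (adjusted p 0.0967 to 0.128). LINC00673, reported elsewhere in pancreatic cancer, measured 1688, 1737 and 1599.6 and 1384, 1418 and 1343, apart (log2 difference -0.28, SE 0.0722, adjusted p = 0.0289), and was lost without any 1 of control libraries 1 and 3 and BRD8 libraries 1, 2 and 3 (adjusted p 0.0730 to 0.117). LINC00367, LINC01000 and LINC00673 had no match in the annotation used for overlaps and copies, so these were not checked for them.

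All 37 called members had groups that did not overlap, and so did 29 members that were not called. These 66 are 43 higher and 23 lower, or 36.5% of members, next to 36.8% of all rows tested, which is near the background. At an unadjusted p under 0.05 there were 60 of the 181 members and 5084 of all 15354 rows, which is also near the background. Large differences without a call were found among the scarcest members: LINC00113 measured 5.69, 15.1 and 3.05 and 16.6, 29.4 and 18.4 normalized counts, with groups apart but control library 2 close to the BRD8 libraries (log2 difference 1.52, SE 0.502, adjusted p = 0.0652). The control mean of LINC00113 was under 10, so that it became a member through the BRD8 group. LINC00706 varied as much within the control group, from 1.08 to 17.1, as between groups (log2 difference 1.11, SE 0.707, adjusted p = 0.315).

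The 6 most abundant members did not pass in limma. LINC00657, known as NORAD, binds Pumilio proteins and guards chromosome stability. It measured 34866, 26848 and 32281 in the controls and 26372, 28224 and 30489.7 in the BRD8 libraries. The groups overlapped (log2 difference -0.14, SE 0.107, adjusted p = 0.412), and 86.2% of its transcript has near-identical copies at other loci. Per kilobase of exonic sequence its mean was 5590 normalized counts, ahead of LINC00674 with 3532 and LINC00998, now the small-protein gene SMIM30, with 1086.

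LINC00674 measured 2950.4, 2396 and 2772 and then 2458, 2387 and 2591, with overlapping groups (log2 difference -0.12, SE 0.0905, adjusted p = 0.391). LINC00998 measured 2138, 2261 and 2113 in control and 1991, 1977 and 1872 in BRD8 libraries. Its groups were apart, with a difference that did not pass (log2 difference -0.16, SE 0.0705, adjusted p = 0.158). LINC00152, or CYTOR, measured 1921, 2754 and 2056 in the controls and 1865, 1724 and 1515 in the BRD8 libraries, apart, with control library 2 the highest (log2 difference -0.39, SE 0.139, adjusted p = 0.0869 in limma). Its adjusted p was 0.0914 in edgeR and 0.0394 in DESeq2, and the authors' deposited table has 0.0371, so its call depends on the test. LINC01001 measured 2050.1, 2197 and 2055 and 1692, 2155 and 1917 (log2 difference -0.13, SE 0.0964, adjusted p = 0.373). LINC01002 measured 1853, 2099.9 and 1880.1 and 1405, 2224 and 1909 (log2 difference -0.10, SE 0.152, adjusted p = 0.694), and its difference turned to 0.09 without BRD8 library 1. The groups of LINC01001 and LINC01002 overlapped. Near-identical copies at other loci cover 94.8% of the LINC01001 transcript, 100% of that of LINC01002, 50% of LINC00674 and 30.0% of LINC00152, so their counts are uncertain.

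Summed over the members, the groups differed by less than the spread of the control libraries. The sum was 76159 ± 4290 normalized counts in control and 73949 ± 1885 in BRD8 libraries (SD, n = 3 each), of which NORAD made 36.6% to 43.4% in the libraries. Without NORAD the sums were 44827 ± 831 and 45587 ± 266. The members made between 0.198% and 0.229% of all normalized counts in a library.

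**Figure D4:**
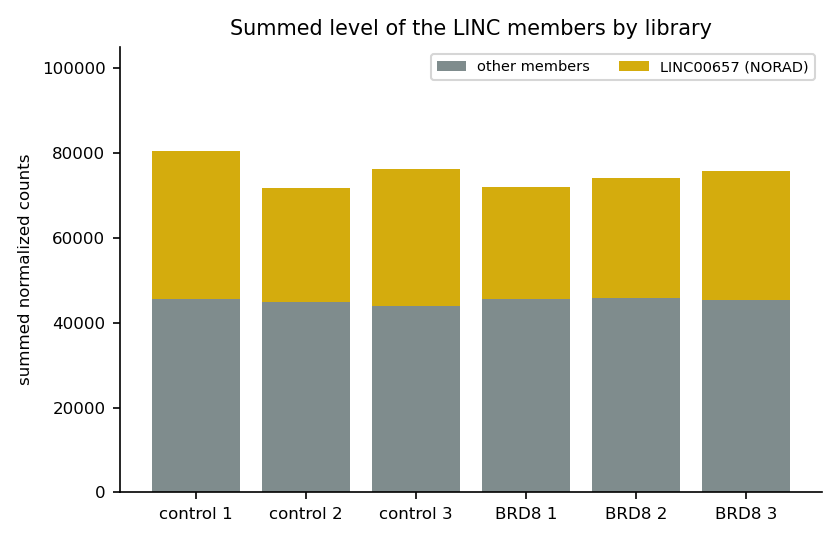
Summed normalized counts of the LINC members in each of the 6 libraries, split into LINC00657 (NORAD) and the other members. The sums run from 71846 in control library 2 to 80425 in control library 1, with the BRD8 libraries between them.

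Of the other members named for a role in other work, LINC00511, described in lung cancer, measured 85.3, 83.1 and 76.2 and 86.3, 72.1 and 62.8, overlapping (log2 difference -0.15, SE 0.161, adjusted p = 0.550). LINC01116 measured 35.1, 59.4 and 48.8 and 30.1, 43.6 and 30.0, also overlapping (log2 difference -0.44, SE 0.250, adjusted p = 0.257). LINC00261, a neighbour of the endoderm factor FOXA2, had a mean of 1.29 normalized counts, the cAMP-responsive LINC00473 of 0.492 and LINC00958 of 1.14, so that none of the 3 reached the level of membership.

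Today's annotation no longer treats every member as noncoding. RefSeq lists 164 of the 181 as lncRNA, 14 as protein-coding and 3 as transcribed pseudogenes, and 44 have another current symbol. Among the 14 coding loci LINC01207, LINC00514 and LINC00672 rose and LINC00094 fell. Those not called include LINC00116, now the inner mitochondrial membrane micropeptide gene MTLN, at 345 and 359, LINC01420, now the decapping-associated NBDY, at 1181 and 1209, and LINC00493, now SMIM26, at 398 and 398. Of the 164 listed as lncRNA, 22 rose and 10 fell, with a median of 0.15. Of the 101 members matched to GENCODE with neither exon overlap on the opposite strand nor a near-identical copy, 21 rose (20.8%) and 3 fell (2.97%). The 13 members without a GENCODE match could not be checked and are left out of these 101. Of the 13, 0 rose and 3 fell. Of the 56 with an exon overlap on the opposite strand 4 rose (7.14%) and 5 fell (8.93%), and of the 28 with a copy 1 rose and 2 fell. Over all rows tested 10.1% rose and 8.93% fell, and the differences between these subsets were not tested.

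Neighbouring coding genes were read from the gene order of GENCODE, taking the nearest on each side that did not overlap the member. Coding genes overlapping a member were left out, among them RB1 for LINC00462, BRD3 for LINC00094 and ATP13A3 for LINC00884. The 26 rising members had 37 tested neighbours, of which 6 rose (16.2%) and 4 fell (10.8%). Among 195 tested neighbours of the members not called, 20 rose (10.3%) and 23 fell (11.8%). The 8 falling members with a place in that order had 12 tested neighbours, 1 rising and 1 falling. The neighbours of LINC01133, SLAMF9 and KCNJ10, and those of LINC01207, MARCH1 and APELA, were not tested. The deposited symbols include 28 that look like dates, so MARCH1 may have gone unmatched rather than been too low. No test compared these shares.

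**Figure D5:**
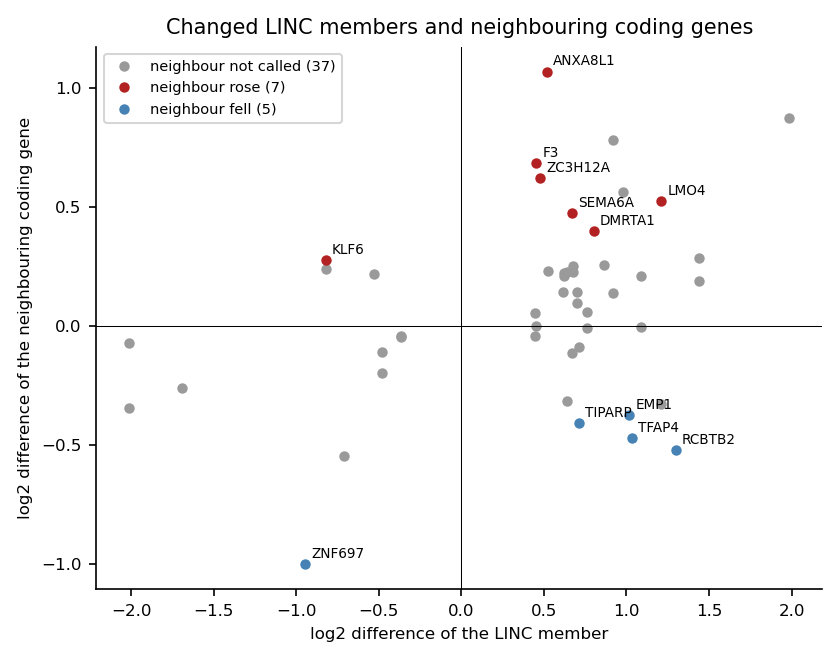
Log2 difference (BRD8 siRNA minus control) of each changed LINC member (x axis) and of its neighbours (y axis), with 1 point per pair. Neighbours are the nearest coding genes on either side that do not overlap the member. The neighbours called in either direction are named, 7 that rose and 5 that fell, and the other 37 were not called.

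Rising pairs included LINC00842 with ANXA8L1, an annexin, which went from 185 to 389 normalized counts (log2 difference 1.07, adjusted p = 4.68e-04). The near-identical stretch of LINC00842 lies at the related ANXA8. F3, the tissue factor gene beside LINC01057, went from 22514 to 36168 (log2 difference 0.68, adjusted p = 8.39e-04). ZC3H12A, which encodes the ribonuclease Regnase-1 and lies beside LINC01137, went from 1227 to 1887 (log2 difference 0.62, adjusted p = 0.00194). LMO4 beside LINC01140, SEMA6A beside LINC00992 and DMRTA1 beside LINC01239 rose by 0.53, 0.47 and 0.40 on the log2 scale.

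In other pairs the neighbour moved against the member. EMP1 beside LINC01559, TIPARP beside LINC00886, TFAP4 beside LINC01569 and RCBTB2 beside LINC00462 had log2 differences of -0.37, -0.41, -0.47 and -0.52, each at an adjusted p under 0.05. KLF6, a zinc finger factor beside the falling LINC00704, rose from 8940.1 to 10822 (adjusted p = 0.0320). ZNF697 beside LINC00622 fell with it, from 364 to 181 (adjusted p = 0.00360). MRGBP, which encodes another subunit of the TIP60 complex and lies beside LINC00659, went from 1753 to 1930.4 and did not pass (adjusted p = 0.299).

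Other classes of gene are given by symbol for setting, with no check of gene type, so the LOC rows need not all be noncoding. Of 377 antisense RNAs tested, 24 rose (6.37%) and 3 fell (0.796%), with a median log2 difference of 0.06. Of 399 uncharacterised LOC rows, 25 rose (6.27%) and 12 fell (3.01%). All rows tested gave 10.1% and 8.93%, with no matching by level. Of 19 snoRNA host genes 1 fell, and of 17 microRNA host genes 3 rose. Of 9 intronic or overlapping transcripts 1 fell, and all 9 had a log2 difference below 0, with a median of -0.34. Of 33 lncRNAs listed by name, 31 were found under that name and 25 of them were tested, of which 5 rose and 2 fell. H19, the imprinted transcript, went from 33.3 ± 1.76 to 116 ± 33.3 (log2 difference 1.72, adjusted p = 0.00156), and NEAT1, the scaffold of paraspeckles, from 16019 ± 1098 to 24311 ± 1939 (log2 difference 0.60, adjusted p = 0.00235). UCA1 rose by 1.06 on the log2 scale, and TUG1 fell from 9039 ± 1282 to 6672 ± 562 (adjusted p = 0.0302). CCAT1 had the larger fall, from 515 ± 89.9 to 278 ± 31.5 (log2 difference -0.88, adjusted p = 0.00456). The differences between these classes and the LINC members were not tested.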

How the data were processed

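The members and lists described here were chosen with earlier results of these data known. Groups and replicate numbers came from the sample titles, which name Calu3, while the shared extraction text speaks of HBE cells. Per the submitters' processing notes, reads were handled with STAR 2.6, featureCounts 1.6.3, DESeq2 1.22.1 and build hg19, and neither annotation nor strand setting is named in what was used. The deposited table holds a normalized signal, counts scaled by the authors with 1 size factor per library. It also holds the authors' comparison, a log2 fold change with its error, the score of their test, and raw and adjusted p-values. Read numbers were recovered from the scaled values, and 100% of values came out whole within 0.01 reads. Floors of 3 reads cover counting error only.

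Differences were tested with limma 3.58.1 (R 4.3.3) fitted with a trended variance to log2(normalized count + 1), over 15354 rows with a mean of at least 10, with Benjamini-Hochberg adjustment over all of them, a threshold of 0.05 and 2 sides. This scale understates the change of low genes. edgeR 4.0.16 and DESeq2 1.42.0 were run on the recovered reads as alternatives, and the script was tested on simulated data. All 26 rises and 11 falls are given with direction and level. Full values by library are given for the 10 largest rises and 10 largest falls, the 6 most abundant members and members named for a role. LINC00113, LINC00706 and the members with a small protein were chosen after their values were seen. Of the 181 members, 181 matched RefSeq by symbol or synonym, 168 matched GENCODE v29, which gave exons, overlaps, copies (at least 95% identity over at least 200 bases) and gene order, and 133 had a promoter. Copies were sought for the longest GENCODE transcript of each member, among transcripts of genes that do not overlap it. Same-numbered libraries did not deviate together in every pair (correlations of -0.0845, 0.335 and 0.155), so the numbers were not taken to pair them.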

Additional observations from a re-analysis of the deposited data

How the results depend on the processing

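Across 12 alternatives that kept all libraries, the members showed between 20 and 32 rises and between 9 and 13 falls. These counts are over 181 members, except 168 with a length and GC trend removed and 91 with a mean of at least 50. With a mean of at least 50, 31.9% of members and 21.4% of all rows were called. With no filter on low values the shares were 17.1% and 12%, the latter including rows below a mean of 10. The 101 members matched to GENCODE and without opposite-strand overlap or copy gave 21 rises and 3 falls, and the 164 that RefSeq lists as lncRNA 22 and 10. The median log2 difference was 0.0876 with a pseudocount of 5, 0.0445 after quantile normalization and 0.0135 for the 91 members with a mean of at least 50. Removing a trend with length and GC content, an alternative chosen after seeing the data along with the subsets of members, 168 members gave 32 rises and 12 falls. That is 26.2% called, below the 31.3% of all rows in the same fit, while without the removal the members' 20.4% lay just above the 19% of all rows. Leaving out 1 library gave 14 to 36 rises, 7 to 17 falls and medians of 0.0891 to 0.151. The log2 difference of LINC01002 ran from -0.245 without BRD8 library 2 to 0.0860 without BRD8 library 1, where its sign turned. With the replicate block there were 28 rises and 13 falls, and with the block and that trend removed together also 28 and 13. Called were 22.7% of members and 25.4% of all rows with the block, and 24.4% and 30.6% with both. The causes of these shifts were not tested. Of the 43 members with a mean under 20, 6.98% passed, and of all rows in that range 5.78%.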

Other observations

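The 359 LINC rows below a mean of 10 were fitted as well when the minimum was dropped, where 6 rose and none fell in limma, with 23 at an unadjusted p under 0.05. These 6 are 1.67% of them, and 12% of all rows passed in that fit. The median level of the 359 rows was 0.835 normalized counts, while that fit also held the 15354 rows with a mean of at least 10. The 12% is therefore not a background of the same level, and no such background was computed. LINC01479 had no reads in the control libraries and 3.12, 3.79 and 3.87 normalized counts in BRD8 libraries 1 to 3 (adjusted p = 0.00540). LINC01594 was likewise at 0 in the control libraries and at 4.16, 1.90 and 0.967 in the BRD8 libraries (adjusted p = 0.0492). LINC00571 measured 2.84, 1.08 and 2.03 in control and 8.32, 6.64 and 7.73 in BRD8 libraries (adjusted p = 0.0243). LINC00589 measured 1.90, 2.16 and 3.05 and then 7.28, 10.4 and 7.73 (adjusted p = 0.0219). LINC00337 and LINC01090 were the other rises, from means of 0.655 to 5.26 and of 0.316 to 3.31. In all 6 genes the levels stand for few reads per library, so no fold is given.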
